A study of Mus musculus with 12 samples.

Results

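The genes described here are the IL-3 receptor chains, the kinase and transcription factors that act below them, and the feedback and target genes of this route, in a mouse lymphoid cell line that depends on IL-3. The 10 genes Il3ra, Csf2rb, Csf2rb2, Jak2, Stat5a, Stat5b, Cish, Socs1, Socs2 and Pim1 were picked by name from a table of 21671 genes. All 10 were found in the table and all 10 were among the 9745 genes tested, a set limited to genes that reached an RPKM of 1 in 3 or more libraries. RPKM are reads scaled to gene length and library size, the scale on which genes are compared here. The highest value of any gene was 119 to 167 RPKM in each library, and reads of abundant genes grew less than in proportion to depth, so levels of the more abundant genes, and ratios that hold them, may be compressed.

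Total RNA was sequenced after depletion of ribosomal RNA from FL5.12 MycER cells in 4 groups with 3 biological replicates each. FL5.12 is a mouse lymphoid precursor line of the strain BALB/c, and the labels name it prolymphocytic. The cells of all 4 groups carried MycER, a fusion of Myc with an estrogen receptor domain that is silent until 4-hydroxytamoxifen (OHT) is given. It was expressed constitutively from a retroviral vector, in a population selected with an antibiotic and not in a clone. All groups grew with murine IL-3, and the methods state that cells were passaged in medium with lowered glucose before experiments with the complex I inhibitor IACS-010759. The groups were untreated cells and 3 treatments. OHT stands for 72 h of OHT at 100 nM, IACS for 24 h of IACS-010759 at 135 nM, and OHT_IACS for 48 h of priming with 100 nM OHT before 24 h in which both agents were present at these doses. Libraries of cells without MycER were not analysed here, so effects of OHT itself and of active MycER cannot be told apart.

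IL-3 binds a receptor made of the specific alpha chain Il3ra and a common beta chain. The mouse has a shared beta chain, Csf2rb, which also serves GM-CSF and IL-5, and a close copy, Csf2rb2, which serves IL-3 alone. The beta chain carries the tyrosine kinase JAK2, which phosphorylates STAT5A and STAT5B. These dimerise, enter the nucleus and switch on genes such as Cish, Socs1, Socs2 and Pim1. The products of the first 3 of these dampen the signal, whereas PIM1 is a serine/threonine kinase that favours survival. Withdrawal of IL-3 kills FL5.12 cells, which made the line a classical model of factor dependence.

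In the GENCODE annotation of GRCm38, Csf2rb (chromosome 15, 78325752 to 78353847, plus strand) and Csf2rb2 (chromosome 15, 78282507 to 78305721, minus strand) lie next to each other in opposite orientation. So do Stat5a (chromosome 11, 100859351 to 100885169, plus strand) and Stat5b (chromosome 11, 100780731 to 100850724, minus strand). The other genes lie apart: Il3ra on chromosome 14 (14346275 to 14356011, plus strand), Jak2 on chromosome 19 (29251828 to 29313080, plus strand), Cish on chromosome 9 (107296026 to 107302784, plus strand), Socs1 on chromosome 16 (10782240 to 10785536, minus strand), Socs2 on chromosome 10 (95385362 to 95417180, minus strand) and Pim1 on chromosome 17 (29490753 to 29496112, plus strand). The reads themselves had been placed on mm9, and the genes were matched by symbol.

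Promoter windows from RefSeq (GRCm38.p6, from 250 bases before to 50 bases after a start site) were at hand for 8 of the 10 genes, in 11 windows. Csf2rb and Socs2 had no entry. The windows were searched for TTCNNNGAA, the letters STAT5 dimers bind, and for CACGTG, the E-box letters bound by MYC with MAX. Both read the same on either strand, and matches of the pair cannot overlap. TTCNNNGAA was found in 2 of the 11 windows and in 8.3% of all 32851 promoter windows, and CACGTG in 1 of the 11 windows and in 7.15% of all. The 3 stretches of 30 bases that hold these letters are shown because they are where the known binding letters of the STAT5 and MYC proteins meet these genes, with the matches in capitals.
Cish, chr9:107296654-107296683, plus strand: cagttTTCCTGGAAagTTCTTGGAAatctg
Csf2rb2, chr15:78305718-78305747, minus strand: agtgtccacaaTTCTGAGAAgcaagcaaag
Pim1, chr17:29493015-29493044, plus strand: gtaaacaggaatCACGTGgtctgaaaccag
Cish holds 2 matches, which begin at positions 1 and 12, where position 1 is the base of the RefSeq start site. The match in Csf2rb2 begins 15 bases before its start site, at position -15, and that in Pim1 at position -58 of its window. A match describes the letters and not a bound site, and its absence in the other windows says nothing of binding elsewhere.

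Library totals, recovered from the step size of the RPKM, ran from 10376530 to 14550158, with 4199265 to 5762338 reads on genes. OHT replicates 1 and 3 had the smallest totals, 10376530 and 10770476, whereas those of the untreated libraries were 13375674, 14550158 and 14281395. Within groups, reads grew with the library total with a median slope (log2 on log2, where 1 is proportional) of 1.38 for genes under 0.1 reads per base, but of 0.59 for genes at 0.5 to 1 reads per base. Csf2rb at 0.55 and Pim1 at 0.70 reads per base fall in the latter class. Csf2rb2 lay at 0.28 and Cish at 0.20, and the remaining 6 genes lay between 0.06 and 0.11. In the class of Csf2rb and Pim1 RPKM therefore ran higher in small libraries, and the size of their changes cannot be ranked against those of the other genes. The slopes of Csf2rb and Pim1 themselves were 0.84 and 0.89. Those of the other 8 genes ran from 1.18 for Csf2rb2 to 1.65 for Stat5a and 1.70 for Cish, so their RPKM ran lower in small libraries, the direction of the falls with OHT reported for Il3ra, Jak2, Stat5a, Cish and Socs2. With the library total (log2) as a covariate, the log2 fold change with OHT was -0.60 for Stat5a (limma, Benjamini-Hochberg adjusted p = 0.00411), -0.26 for Cish (0.0313) and -0.39 for Socs2 (0.0194), all smaller than without it and still called, and the values of Il3ra and Jak2, which lost their calls, stand with these genes.

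**Figure D1:**
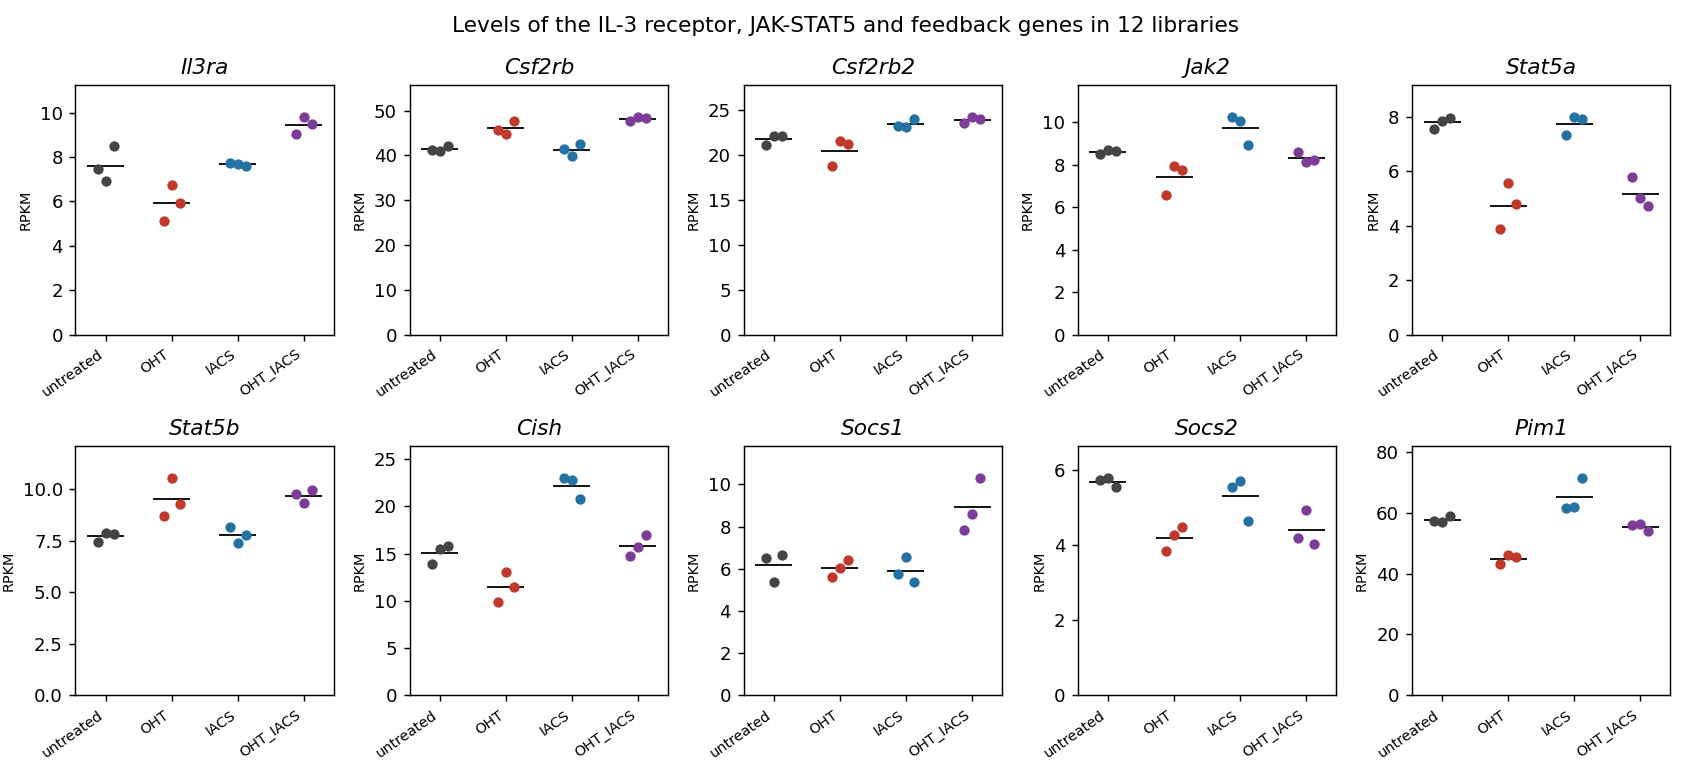
Deposited RPKM (vertical axes, from 0) of each of the 10 genes in the 3 untreated, 3 OHT, 3 IACS and 3 OHT_IACS libraries. Points are libraries in the order of replicates 1 to 3 and bars are group means. Stat5a lay lower and Stat5b higher in all 6 libraries with OHT than in the 6 without, Cish was highest in the 3 IACS libraries, and Socs1 stood out in the 3 OHT_IACS libraries.

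Untreated cells held the mRNAs of every step of the route. Pim1 was the most abundant of the 10 at 57.7 ± 0.943 RPKM (SD, n = 3), and was followed by Csf2rb (41.3 ± 0.604), Csf2rb2 (21.8 ± 0.587), Cish (15.04 ± 1.02) and Jak2 (8.61 ± 0.101). None of these neighbours overlapped in their 3 libraries. Stat5a (7.79 ± 0.219), Stat5b (7.70 ± 0.226) and Il3ra (7.62 ± 0.805) overlapped and had no order beyond their spread, and the same held for Socs1 (6.17 ± 0.712) and Socs2 (5.69 ± 0.128) at the lower end. The beta chain mRNAs were thus measured well above that of the alpha chain, with a Csf2rb to Il3ra ratio of 5.46 ± 0.488 in untreated cells, a ratio subject to the limit on abundant genes. With OHT, Csf2rb (46.0 ± 1.47) and Pim1 (45.0 ± 1.54) overlapped at the top, Cish overlapped with Stat5b, and Socs1, Il3ra, Stat5a and Socs2 each overlapped with the next in rank. With IACS, the order of the 10 genes differed from that of untreated cells only between Stat5a and Stat5b, which overlapped in both groups. With OHT_IACS, Stat5b, Il3ra, Socs1 and Jak2 formed a run in which each overlapped with its neighbour, between 9.67 ± 0.322 and 8.31 ± 0.260 RPKM.

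Each comparison was made with limma on log2(RPKM + 0.1) in 1 model of the 12 libraries, and the two-sided p-values were adjusted by Benjamini-Hochberg over the 9745 genes. A gene is called changed at an adjusted p under 0.05. The comparisons share groups of libraries and are not independent of each other. OHT against untreated and OHT_IACS against IACS give the response to OHT without and with the inhibitor. IACS against untreated and OHT_IACS against OHT give the response to the inhibitor in nonprimed and in OHT-primed cells.

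OHT lowered the receptor alpha chain, the kinase, Stat5a and 3 of the 4 feedback and target genes, and raised Stat5b. Of the 10 genes, 7 were changed, 1 higher and 6 lower, where 36.4% of all genes tested were changed, 18.2% higher and 18.2% lower. The median log2 fold change of the 10 was -0.31, and that of all genes tested was 0.01. In OHT-treated cells given the inhibitor, 5 of the 10 genes rose, the other 5 did not pass the test, and 23.7% of all genes were changed, 11.9% higher and 11.8% lower. The median of the 10 in that comparison was 0.20, beside -0.01 for all genes.

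In nonprimed cells the inhibitor changed 1 of the 10 genes, Cish, which rose, where 15.9% of all genes were changed, 8.15% higher and 7.74% lower. Jak2 also rose at an unadjusted p under 0.05, so that 2 of the 10 passed without adjustment, both higher. Of all 9745 genes tested, 2969 passed without adjustment, a larger share. The median was -0.01 for the 10 and 0.00 for all genes. In OHT_IACS against IACS, 9 of the 10 genes were changed, 4 higher and 5 lower, where 26.5% of all genes were changed, 12.3% higher and 14.2% lower. Leaving out single libraries brought that number down to between 6 and 8 in this last comparison. There the 2585 called of all genes fell to between 1880, without IACS replicate 2, and 2481, without IACS replicate 3. Over all genes, the 1548 called with IACS fell to 951 and 998 when untreated replicate 1 or 2 was left out and to 1026 when IACS replicate 3 was, and the 2310 called in OHT_IACS against OHT became 1524 without OHT_IACS replicate 3.

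**Figure D2:**
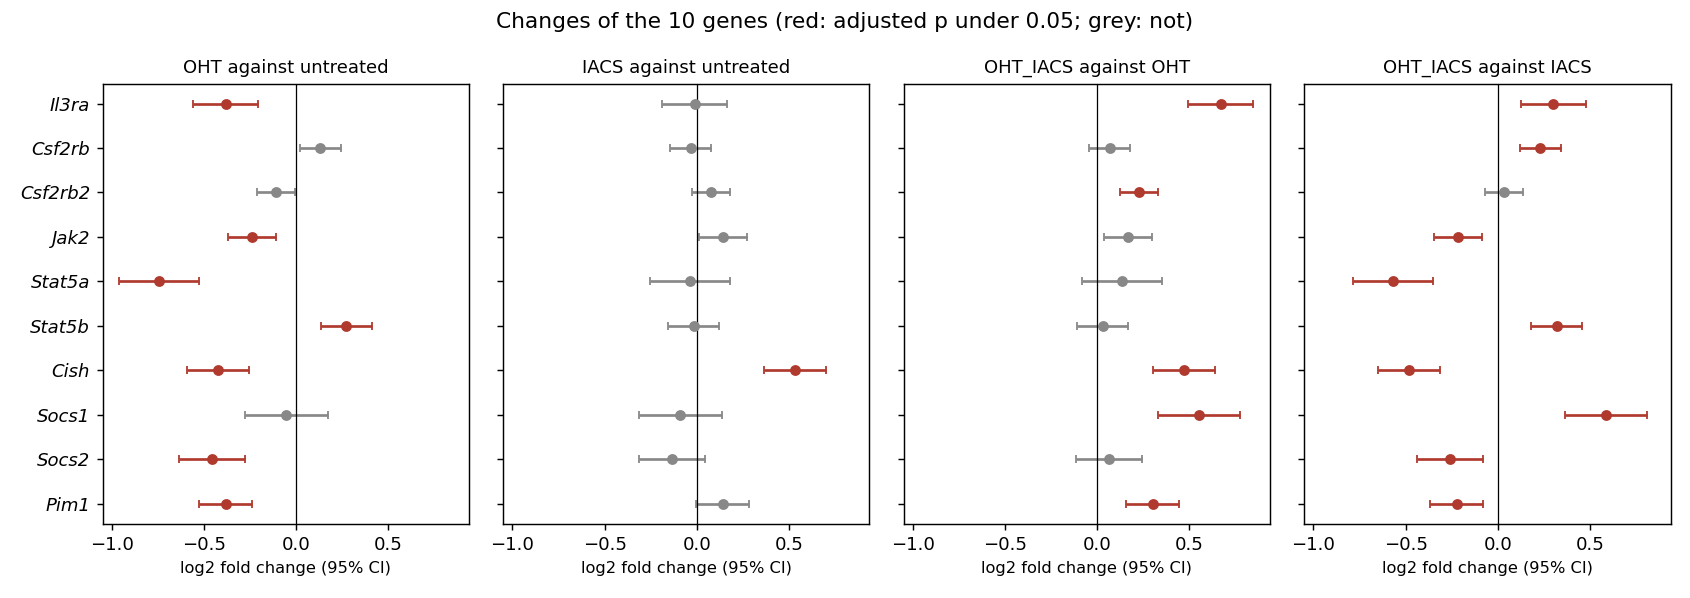
Log2 fold changes (horizontal axis) of the 10 genes in 4 comparisons, with 95% confidence intervals from the limma fit of 12 libraries. Red points passed an adjusted p of 0.05 and grey points did not. Both comparisons of cells with and without OHT show Stat5a, Cish, Socs2, Jak2 and Pim1 to the left and Stat5b to the right, whereas Il3ra lies to the left without and to the right with IACS-010759.

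Il3ra, the chain that gives the receptor its specificity for IL-3, measured 7.45, 6.90 and 8.49 RPKM in the untreated libraries and 5.116, 6.73 and 5.93 with OHT. The highest OHT library lay just under the lowest untreated library. Its log2 fold change was -0.38 (SE 0.08, limma, Benjamini-Hochberg adjusted p = 0.00271), and with the library total (log2) as a covariate it was -0.28 and no longer called (adjusted p = 0.0634). With IACS alone Il3ra stayed within the range of the untreated libraries at 7.74, 7.68 and 7.60 RPKM. With OHT_IACS it reached 9.03, 9.78 and 9.49 RPKM, above all 9 libraries of the other groups.

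Against OHT alone this was a rise of 0.67 on the log2 scale, or 1.59-fold (SE 0.08, limma, Benjamini-Hochberg adjusted p = 0.000103). Against IACS alone Il3ra rose by 0.30 (SE 0.08, adjusted p = 0.0154), and without OHT_IACS replicate 3 this value was 0.29 and just missed the threshold (adjusted p = 0.0501). OHT thus went with less Il3ra mRNA in cells without the inhibitor and with more in cells with it. The response of Il3ra to the inhibitor differed between OHT-primed and nonprimed cells by 0.68 on the log2 scale (SE 0.12, interaction term, limma, Benjamini-Hochberg adjusted p = 0.0445). This call held in 6 of 22 alternatives, and among single libraries left out only without untreated replicate 2 and without OHT replicate 2, at adjusted p from 0.00969 to 0.131 and with the same sign throughout. The lower level with OHT alone enters this difference by construction. Il3ra counts were modest, between 74 and 169 reads per library.

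Csf2rb, the shared beta chain, measured 41.1, 40.9 and 42.0 RPKM in untreated libraries and 45.7, 44.7 and 47.6 with OHT. All 3 OHT libraries were higher, but the log2 fold change of 0.13 missed the threshold (SE 0.05, limma, Benjamini-Hochberg adjusted p = 0.0609). It was called without OHT replicate 2 (0.16, adjusted p = 0.0163), and with the library total as a covariate it was 0.05 (adjusted p = 0.351). In the IACS libraries Csf2rb lay at 41.4, 39.8 and 42.4 RPKM and in the OHT_IACS libraries at 47.7, 48.5 and 48.3. Between these groups it rose by 0.23 on the log2 scale (SE 0.05, adjusted p = 0.00501), and this call held in all 17 alternatives, at 0.20 with the library total as a covariate.

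Csf2rb2, the copy that serves IL-3 alone, had 21.1, 22.1 and 22.1 RPKM in untreated libraries, 18.7, 21.5 and 21.2 with OHT, 23.2, 23.2 and 24.0 with IACS and 23.6, 24.2 and 24.0 with OHT_IACS. OHT replicate 1 was the lowest of the 12. Only the rise of OHT_IACS over OHT passed the test (0.22 on the log2 scale, SE 0.05, limma, Benjamini-Hochberg adjusted p = 0.00513). Against untreated cells its log2 fold change with OHT was -0.11 (95% confidence interval -0.21 to -0.01, adjusted p = 0.0861), which was called without OHT replicate 2 (-0.14, adjusted p = 0.0438).

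The ratio of Csf2rb to Csf2rb2 RPKM was 1.90 ± 0.0513 in untreated cells, 2.25 ± 0.180 with OHT, 1.76 ± 0.0339 with IACS and 2.01 ± 0.0101 with OHT_IACS (SD, n = 3). In each pair of groups, the ratio was higher in the 3 libraries with OHT than in the 3 without. Depth limits this reading, since the slopes of reads on library total were 0.84 for Csf2rb and 1.18 for Csf2rb2. The ratio therefore runs higher in small libraries. In OHT replicates 1, 2 and 3 it was 2.44, 2.08 and 2.25, at totals of 10376530, 13956222 and 10770476. Whether the ratio differs with OHT at equal depth was not tested. The genes are near-identical copies in part: 18.4% of the windows of 50 bases in a Csf2rb transcript also occur in Csf2rb2, and 19.0% in the other direction. How reads from these stretches were assigned is not given in the sources used here, so the split between the genes is uncertain. The sum of both was 63.1 ± 0.953 RPKM in untreated and 72.1 ± 0.722 with OHT_IACS.

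The ligands and the other alpha chains of the beta common family were hardly present. Il3 and Csf2, which encodes GM-CSF, had no counted read in any of the 12 libraries, which still allows an expected count of up to 3 reads per library. Il5 had at most 1 read, Csf2ra, the GM-CSF receptor alpha chain, at most 3 reads, and Il5ra at most 10 reads in any library. None of these 5 genes passed the filter, and no fold is given for them.

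Jak2, the kinase bound to the beta chain, had 8.50, 8.70 and 8.62 RPKM in untreated libraries and 6.59, 7.92 and 7.73 with OHT. All OHT libraries were lower, and the log2 fold change was -0.24 (SE 0.06, limma, Benjamini-Hochberg adjusted p = 0.00726), or -0.14 with the library total as a covariate, where it was not called (adjusted p = 0.146). With IACS Jak2 measured 10.2, 10.04 and 8.91 RPKM and with OHT_IACS 8.61, 8.13 and 8.19, a log2 fold change of -0.21 (SE 0.06, adjusted p = 0.0175). That call was lost without IACS replicate 1 (adjusted p = 0.0728), IACS replicate 2 (0.0611) or OHT_IACS replicate 2 (0.066). All 3 IACS libraries were above the untreated ones, at 0.14 on the log2 scale (adjusted p = 0.124). The rise with the inhibitor in OHT-primed cells was 0.17 (adjusted p = 0.058), and was called without OHT replicate 2 (0.21, adjusted p = 0.0279).

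The STAT5 genes moved in opposite directions. Stat5a fell from 7.54, 7.85 and 7.96 RPKM in untreated libraries to 3.86, 5.55 and 4.80 with OHT. Among the 8 genes other than Csf2rb and Pim1 this was the largest change in any of the 4 comparisons, -0.74 on the log2 scale or 0.598-fold (SE 0.10, limma, Benjamini-Hochberg adjusted p = 8.82e-05). With IACS it lay at 7.33, 7.97 and 7.90 RPKM, which overlapped with untreated, and with OHT_IACS at 5.77, 5.01 and 4.74. The fall with OHT in the presence of the inhibitor was -0.57 (SE 0.10, adjusted p = 0.00102), and no library with OHT reached any library without it.

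Stat5b rose over the same groups, from 7.44, 7.85 and 7.81 RPKM in untreated libraries to 8.68, 10.5 and 9.30 with OHT, and from 8.16, 7.39 and 7.76 with IACS to 9.76, 9.31 and 9.94 with OHT_IACS. The log2 fold changes were 0.27 (SE 0.06, limma, Benjamini-Hochberg adjusted p = 0.00513) and 0.32 (SE 0.06, adjusted p = 0.00258). The inhibitor by itself moved neither gene past the threshold. Its 95% confidence interval for Stat5a was -0.25 to 0.18 in nonprimed and -0.08 to 0.35 in OHT-primed cells, and for Stat5b -0.15 to 0.12 and -0.11 to 0.17. All 4 calls of the STAT5 genes with OHT held in all 17 alternatives of each comparison.

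The ratio of Stat5b to Stat5a RPKM was therefore close to 1 without OHT and close to 2 with it. It was 0.990 ± 0.00985 in untreated cells, 2.03 ± 0.193 with OHT, 1.01 ± 0.0954 with IACS and 1.88 ± 0.205 with OHT_IACS (SD, n = 3). The sum of both genes moved far less, at 15.5 ± 0.438, 14.2 ± 1.77, 15.5 ± 0.156 and 14.8 ± 0.620 RPKM, and the ranges of all 4 groups overlapped. Of the windows of 50 bases in a Stat5a transcript, 15.8% also occur in Stat5b, and 11.8% in the other direction, so the split is uncertain in those stretches.

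**Figure D3:**
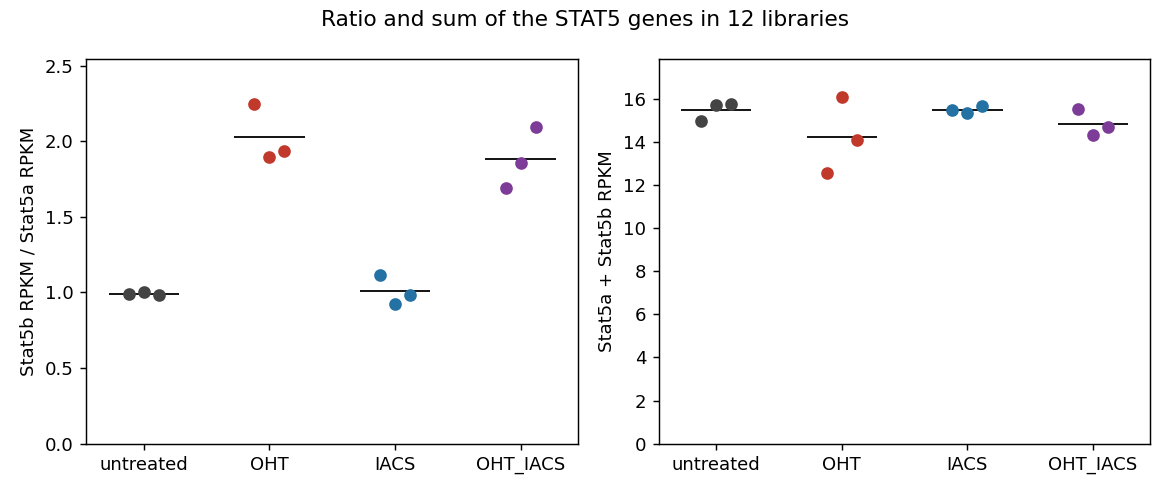
Ratio of Stat5b to Stat5a RPKM (left, no unit) and their summed RPKM (right) in 12 libraries, both from 0, with points for libraries and bars for group means. The ratio lay between 0.927 and 1.11 in the 6 libraries without OHT and between 1.69 and 2.25 in the 6 with OHT, while the sums lay between 12.5 and 16.1.

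Cish, an SH2 protein that blocks docking sites of STAT5 on the receptor, responded to both treatments in opposite directions. It measured 13.9, 15.5 and 15.7 RPKM in untreated libraries, 9.86, 12.998 and 11.4 with OHT, 23.0, 22.8 and 20.8 with IACS and 14.8, 15.7 and 16.99 with OHT_IACS. The IACS libraries were above and the OHT libraries below all others, and the untreated and OHT_IACS libraries overlapped. The inhibitor raised Cish by 0.53 on the log2 scale in nonprimed cells (1.44-fold, SE 0.08, limma, Benjamini-Hochberg adjusted p = 0.000603). The rise was 0.47 in OHT-primed cells (1.39-fold, adjusted p = 0.00103). OHT lowered it by a log2 fold change of -0.42 without the inhibitor (adjusted p = 0.00102) and of -0.48 with it (adjusted p = 0.000559).

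These 4 calls of Cish held in all 17 alternatives of each comparison, but the fall with OHT shrank from -0.42 to -0.26 with the library total as a covariate (limma, Benjamini-Hochberg adjusted p = 0.0313). The difference between the inhibitor responses of OHT-primed and nonprimed cells was -0.06 (95% confidence interval -0.30 to 0.18). This is the gene with the paired TTCNNNGAA letters at and just after a RefSeq start site, shown above, which lies inside the annotated gene. Cish was the only 1 of the 10 genes called in all 4 comparisons of groups.

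Socs1, which inhibits JAK kinases directly, had 6.50, 5.36 and 6.66 RPKM in untreated libraries, 5.61, 6.05 and 6.40 with OHT, and 5.77, 6.57 and 5.38 with IACS. These 9 libraries overlapped, and neither treatment alone moved it past the threshold. With OHT_IACS the 3 libraries stood above all of them, at 7.85, 8.62 and 10.3 RPKM. Socs1 rose by 0.55 against OHT (1.47-fold, SE 0.10, limma, Benjamini-Hochberg adjusted p = 0.00232) and by 0.59 against IACS (1.504-fold, SE 0.10, adjusted p = 0.000997). The interaction was 0.64 (SE 0.15, 95% confidence interval 0.32 to 0.96), close to that of Il3ra in size, and did not pass (unadjusted p = 0.00071, adjusted p = 0.127). Socs1 had 71 to 148 reads per library.

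Socs2, which acts with a ubiquitin ligase on cytokine and growth hormone receptors, fell with OHT from 5.75, 5.78 and 5.55 to 3.83, 4.26 and 4.48 RPKM. The log2 fold change was -0.46 (SE 0.08, limma, Benjamini-Hochberg adjusted p = 0.000847). The IACS libraries held 5.56, 5.71 and 4.64 RPKM and the OHT_IACS libraries 4.20, 4.95 and 4.02, with an overlap between IACS replicate 3 and OHT_IACS replicate 2. The log2 fold change between them was -0.26 (adjusted p = 0.0327), and it was lost when any of IACS replicates 1 or 2 or OHT_IACS replicates 1 or 3 was left out (adjusted p from 0.101 to 0.127), and held in 10 of 17 alternatives. In contrast to Cish, Socs2 did not rise with the inhibitor, at -0.13 (95% confidence interval -0.31 to 0.04) in nonprimed and 0.06 (-0.11 to 0.24) in OHT-primed cells.

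Pim1, the survival kinase, measured 57.3, 57.1 and 58.8 RPKM in untreated libraries and 43.2, 46.2 and 45.5 with OHT. The groups were far apart, at a log2 fold change of -0.38 (SE 0.07, limma, Benjamini-Hochberg adjusted p = 0.000678) and of -0.45 with the library total as a covariate. With IACS it had 61.7, 62.1 and 71.4 RPKM, all above untreated, but the change of 0.14 did not pass (adjusted p = 0.176). IACS replicate 3, the highest, had the smallest total of that group, 11133789. With OHT_IACS Pim1 came back to 56.1, 56.2 and 53.9 RPKM, a rise of 0.30 over OHT (SE 0.07, adjusted p = 0.00641).

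Between OHT_IACS and IACS the log2 fold change of Pim1 was -0.22 (SE 0.07, limma, Benjamini-Hochberg adjusted p = 0.0257). Without IACS replicate 3 it was -0.13 (adjusted p = 0.0753), and without OHT_IACS replicates 1, 2 or 3 the adjusted p was 0.055, 0.0688 and 0.0806. With only the compared groups it was 0.0574, so that the call held in 12 of 17 alternatives. The window of Pim1 that holds CACGTG belongs to a start site inside the annotated gene.

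In the test of whether the inhibitor response differed between OHT-primed and nonprimed cells, 1 of the 10 genes, Il3ra, passed, where 0.144% of all genes did (14 genes). Single libraries moved the count over all genes, to 130 without OHT replicate 2, and to between 3 and 11 without any other library, the lowest without OHT replicate 3 or OHT_IACS replicate 3. At an unadjusted p under 0.05, 2 of the 10 (Il3ra and Socs1) and 1240 of all genes passed. The values of the other 8 genes lay between -0.06 for Cish and 0.20 for Socs2.

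The remaining genes of the pathway were taken from 5 lists of 65 genes, of which 55 were tested. OHT changed 30 of the 55, 9 higher and 21 lower, and the inhibitor changed 16 in nonprimed cells, 13 higher and 3 lower. In OHT-primed cells the inhibitor changed 20, 14 higher and 6 lower, and between OHT_IACS and IACS 17 were changed, 5 higher and 12 lower. These were 54.5%, 29.1%, 36.4% and 30.9% of the 55, beside 36.4%, 15.9%, 23.7% and 26.5% of all genes tested, so the last share lay near that of all genes. In the interaction none of the 55 passed limma with adjustment, also not with voom on recovered reads, whereas 16 had an unadjusted p under 0.05. Single libraries decided part of these counts: with IACS 10 were called without untreated replicate 1 or without untreated replicate 3, and for OHT_IACS against IACS 11 without IACS replicate 1, IACS replicate 2 or OHT_IACS replicate 1. In the same order, 951, 1043, 1887, 1880 and 1956 of all genes tested were called in these fits. The medians of the 55 genes were -0.07, 0.05, 0.08 and -0.04 in the 4 comparisons.

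Of the other JAK and STAT genes, 5 of 8 were called lower with OHT, beside 18.2% of all genes, and none was called higher. Stat4, a STAT of interleukin-12 signalling, fell the most, from 2.03 ± 0.0998 to 0.747 ± 0.122 RPKM (SD, n = 3), a log2 fold change of -1.36 (SE 0.14, limma, Benjamini-Hochberg adjusted p = 1.17e-05). It rose by 0.76 when the inhibitor was added to OHT (adjusted p = 0.00254), and its log2 fold change between OHT_IACS and IACS was -0.94 (adjusted p = 0.000371). The inhibitor raised 2 of the 8 in nonprimed and 2 in OHT-primed cells, and 2 of the 8 were lower with OHT_IACS than with IACS, beside 15.9%, 23.7% and 26.5% of all genes called in either direction in these 3 comparisons.

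Of the 18 inhibitors and phosphatases, 2 rose and 6 fell with OHT, 2 rose and 1 fell with the inhibitor in nonprimed cells, 3 rose and 2 fell with it in OHT-primed cells, and 1 was higher and 4 lower with OHT_IACS than with IACS. The shares called, 44.4%, 16.7%, 27.8% and 27.8%, lay near the 36.4%, 15.9%, 23.7% and 26.5% of all genes. Socs3, a further feedback inhibitor, measured 3.59 ± 0.255 RPKM in untreated and 2.81 ± 0.358 with IACS, a log2 fold change of -0.37 (limma, Benjamini-Hochberg adjusted p = 0.048). In nonprimed cells this was the opposite direction to Cish. In OHT-primed cells the log2 fold change of Socs3 with the inhibitor was 0.24, the direction of Cish, and did not pass (adjusted p = 0.16). In OHT-primed cells the inhibitor raised Pias3, a STAT inhibitor, by 0.56 (adjusted p = 0.00251) and lowered Ptpn6, the phosphatase SHP-1, by a log2 fold change of -0.21 (adjusted p = 0.0117). Pias3 had fallen with OHT alone, from a mean of 2.53 to 1.77 RPKM (adjusted p = 0.00203), and stood at 2.65 RPKM with OHT_IACS. The inhibitor did not move Pias3 past the threshold in nonprimed cells (0.12, adjusted p = 0.499).

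The adaptors and parallel branches were 16 genes, all tested. Gab2, the docking protein below the beta chain, stood at 8.19 ± 0.553 RPKM in untreated cells, 13.03 ± 0.150 with IACS, 9.87 ± 1.17 with OHT and 15.7 ± 0.902 with OHT_IACS (SD, n = 3). The inhibitor thus raised it by 0.64 and 0.67 on the log2 scale without and with OHT (SE 0.07, limma, Benjamini-Hochberg adjusted p = 5.4e-05 and 2.46e-05). Between OHT_IACS and IACS Gab2 rose by 0.27 (adjusted p = 0.0103).

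Sos1, the exchange factor of RAS, rose by 0.51 with OHT (limma, Benjamini-Hochberg adjusted p = 0.00131), by 0.73 with IACS (adjusted p = 0.000317) and by 0.32 in OHT_IACS against IACS (adjusted p = 0.0269). Nras and Hras, which encode RAS proteins, had log2 fold changes of -0.30 and -0.22 with the inhibitor in nonprimed cells and of -0.23 and -0.22 in OHT-primed cells. In the whole list, 5 genes rose and 4 fell with OHT, 4 rose and 2 fell with IACS, 5 rose and 3 fell in OHT_IACS against OHT, and 3 were higher and 1 lower in OHT_IACS against IACS. These were 9, 6, 8 and 4 of the 16 genes, beside 36.4%, 15.9%, 23.7% and 26.5% of all genes, and the last count lay close to the share of all genes.

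Other STAT5 target genes, 13 tested of 18, did not move as a block with OHT, with 2 higher and 6 lower. Myc fell from 36.3 ± 0.779 to 21.0 ± 1.60 RPKM, a log2 fold change of -0.81 (SE 0.05, limma, Benjamini-Hochberg adjusted p = 1.74e-07), and of -0.62 for OHT_IACS against IACS (adjusted p = 2.76e-06). The paper reports that OHT suppressed endogenous Myc in these cells, both the mRNA by RT-PCR and the protein. Whether Myc also received reads from the MycER transgene was not tested. Gadd45g, a stress and growth arrest gene, had log2 fold changes of -1.15 and -0.80 in the same comparisons (adjusted p = 0.00147 and 0.0192) at no more than 46 reads per library.

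Ccnd2, the cyclin D gene downstream of STAT5, went the other way, from 20.9 ± 0.927 to 31.2 ± 0.660 RPKM with OHT (0.55 on the log2 scale, SE 0.05, limma, Benjamini-Hochberg adjusted p = 5.71e-06) and by 0.28 between OHT_IACS and IACS (adjusted p = 0.00178). With the inhibitor in nonprimed cells 5 of the 13 rose and the other 8 did not pass. Il2ra, the alpha chain of the IL-2 receptor, had the largest value of these, from 0.518 ± 0.127 to 1.03 ± 0.0750 RPKM (0.86 on the log2 scale, SE 0.20, adjusted p = 0.00985). No library without the inhibitor reached an RPKM of 1, so Il2ra passed the filter only through libraries with the inhibitor. Its place among the 5 therefore gives no support for a rise of this list, and it had at most 79 reads in any library. In OHT-primed cells 4 rose and 1 fell, and 1 was higher and 5 lower with OHT_IACS than with IACS. The shares called were 61.5%, 38.5%, 38.5% and 46.2% in the 4 comparisons, beside 36.4%, 15.9%, 23.7% and 26.5% of all genes.

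**Figure D4:**
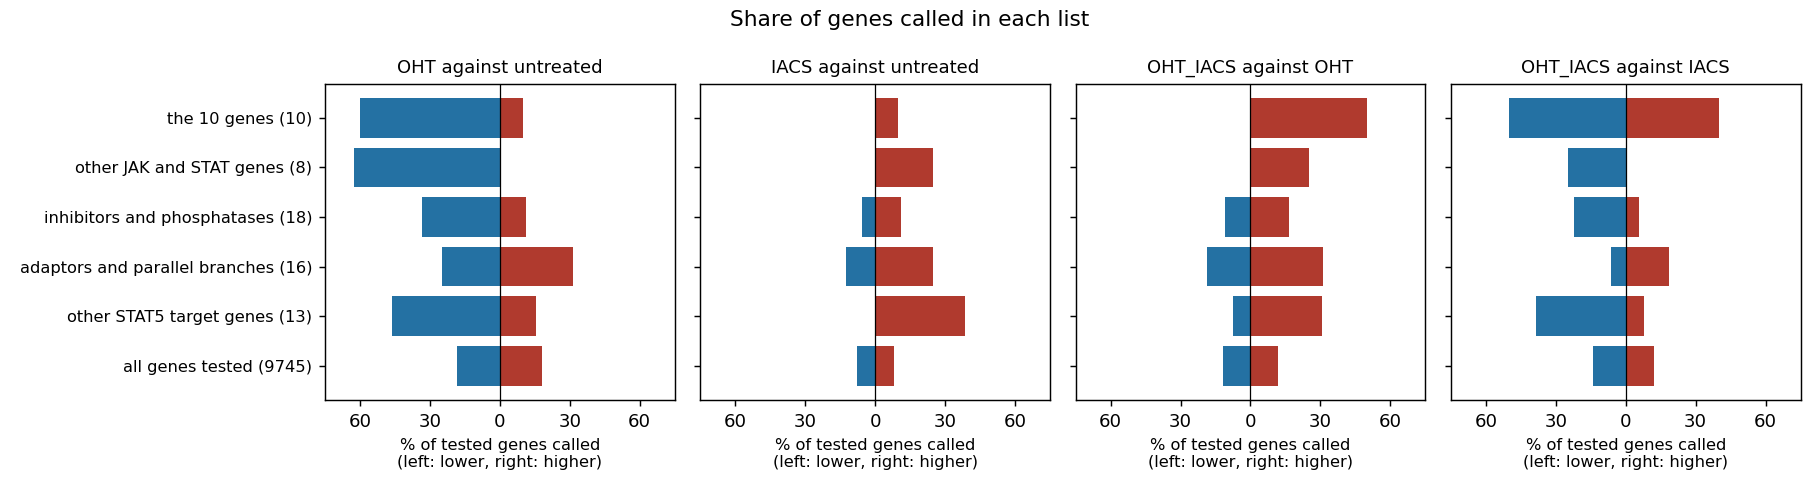
Share of tested genes called lower (blue, to the left) and higher (red, to the right) in 4 comparisons, for the 10 genes, the 4 further lists with tested genes and all 9745 genes, with the number tested in brackets. With OHT, the bars of the 10 genes and of the other JAK and STAT genes point mostly to the left and those of the adaptors both ways, beside 18.2% in either direction for all genes.

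The genes whose log2 levels followed Cish most closely over the 12 libraries were Klf13 (Pearson r = 0.98), Arhgef6 (0.98) and Fyn (0.97). Klf13, a zinc finger factor, had group means of 4.73, 3.41, 6.18 and 4.64 RPKM in untreated, OHT, IACS and OHT_IACS, the same order of groups as Cish for the highest and the lowest. Fyn, a kinase of the SRC family, had 4.38, 3.00, 6.94 and 4.99 RPKM. Those closest to Csf2rb were Sav1 (0.95), Dlat (0.94) and Epb4.2 (0.94), and Dlat, a subunit of pyruvate dehydrogenase, had 15.6, 18.1, 15.8 and 18.8 RPKM. The 12 libraries fall into 4 groups and share their depth, so these values describe likeness only.

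Markers of blood cell types were checked against the labelled type. Of 12 B lineage genes, Cd79a and Cd79b were tested, and Pax5, Rag1, Il7r and Blnk were listed at 0 in all libraries. The summed RPKM of the list was 3.88 to 4.64 in untreated, 2.66 to 2.80 with OHT, 3.77 to 5.11 with IACS and 2.12 to 2.91 with OHT_IACS. Defining B lineage genes such as Pax5 were thus at 0, and the line is named here only as its labels and methods give it. Of 8 myeloid and granulocyte genes, 3 were tested (Mpo, Prtn3 and Ctsg) and Ly6c2 was at 0. Their sum moved with OHT, from 42.8 to 45.4 RPKM in untreated to 23.0 to 27.5, and from 37.7 to 47.0 with IACS to 24.6 to 25.1 with OHT_IACS.

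Of 6 mast cell and basophil genes, Cpa3 and Gata2 were tested and Kit was at 0. The sum was 38.9 to 40.0 RPKM in untreated, 29.0 to 31.3 with OHT, 43.6 to 45.8 with IACS and 44.8 to 49.1 with OHT_IACS. Of 6 T cell genes, Cd3g was tested and Cd3e and Thy1 were at 0, with sums of 1.89 to 2.26, 0.938 to 1.23, 1.58 to 2.37 and 1.45 to 1.79 RPKM. The 4 erythroid genes in the table of 5 listed were all tested, with sums of 42.6 to 43.4, 43.6 to 46.7, 35.01 to 41.2 and 37.6 to 38.3. With OHT the mast cell sum was lower through Gata2 (mean 34.2 to 25.3 RPKM), whereas Cpa3 did not fall (4.59 to 4.73). In the B lineage list Cd79b fell (2.95 to 1.36 RPKM) and Cd79a did not (0.994 to 1.09). The means of Mpo, Prtn3 and Ctsg all fell, and the T cell sum rested mostly on Cd3g. As sums, the B lineage, myeloid, mast cell and T cell lists were lower with OHT than in untreated cells, as were Stat5a, Cish, Socs2 and Pim1. A lower sum is thus no fall of every gene in its list. The part of these marker genes in the results was not tested, and in bulk RNA fewer cells of a type and less RNA per cell cannot be told apart.

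**Figure D5:**
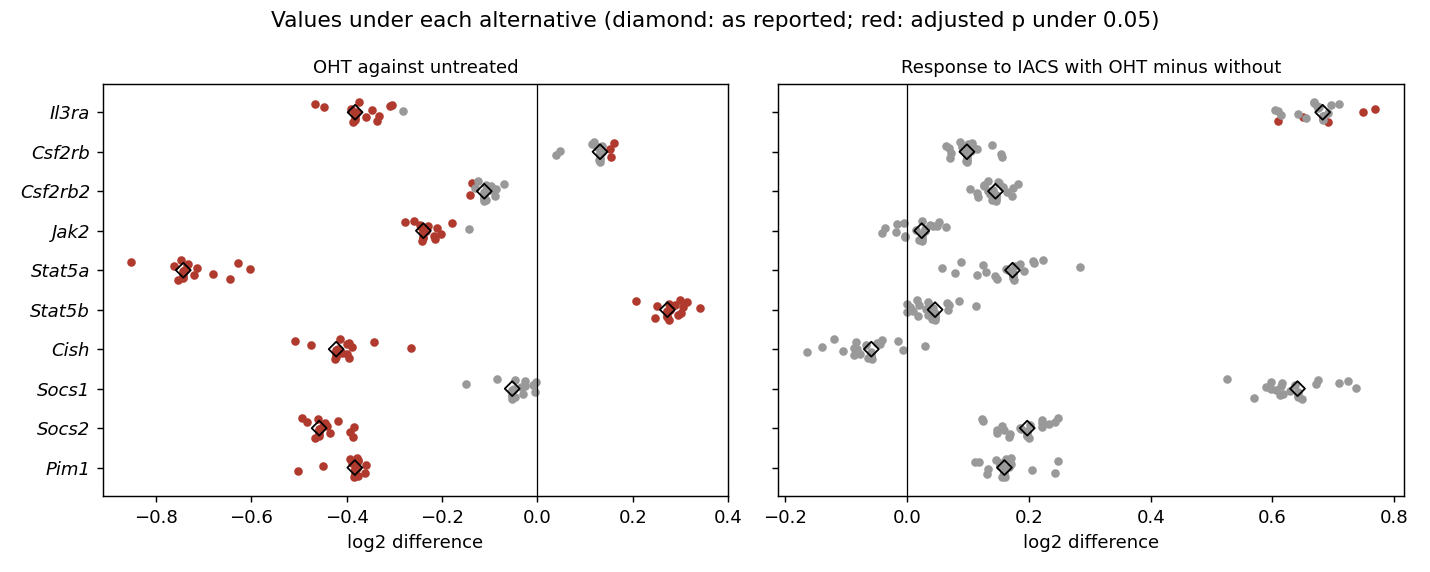
Log2 fold change with OHT (left) and interaction, the inhibitor response with OHT minus that without (right), of each gene under each alternative. Diamonds are the reported values, and filled points are alternatives, red where the adjusted p was under 0.05. On the left, Stat5a, Stat5b, Cish, Socs2 and Pim1 were called in all 17 alternatives and Il3ra and Jak2 in 16, and on the right Il3ra was called in 6 of 22.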

How the data were processed

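The authors deposited the RPKM of each gene in each of the 12 libraries. Per the labels, reads were placed on mm9, and the submitters' processing notes name TopHat2 2.0.8, SAMtools, featureCounts 1.4.5-p1 and DESeq2. Whether counting used strand is not given in the sources used here. Beside the RPKM, the authors deposited log2 fold changes and p-values (adjusted) from 3 comparisons of their own, which were not used.

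The steps between RPKM values gave back reads, gene lengths and library totals, and all 15451 genes above 0 came out whole. Depth was 4199265 to 5762338 reads on genes per library, with a floor of 3 reads, and counting limits cover counting error only. The chi-square per gene between replicates was 1.09 to 2.02, where 1 is sampling noise, and was lowest for IACS replicates 1 and 2 (1.09) and untreated replicates 1 and 2 (1.10). Every pair differed by more than sampling noise and all libraries were counted, but repeat libraries of 1 culture could differ as little. p-values measure the spread between these replicates.

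Libraries were scaled by their median ratio, and genes that reached an RPKM of 1 in 3 or more libraries were compared with limma 3.58.1 (R 4.3.3) on log2(RPKM + 0.1), a scale that understates changes of low genes. The procedure was tested on simulated data. Tables were made with pandas 2.3.3 and numpy 2.4.6 under python 3.11.15, and plots with matplotlib 3.10.9. Alternatives were other pseudocounts (0.01 and 1), RPKM left unscaled or quantile normalized, a minimum RPKM of 5 or none, a replicate block, no trend, only the compared groups (not for the interaction, which uses all), the log2 library total as a covariate, voom on recovered reads, and each library left out.

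The 10 genes and the lists were chosen with earlier results of these data known. All 10 genes are named. Of the pathway lists, the 3 largest rises and falls among called genes without overlap between groups are named in each comparison, and for Cish and Csf2rb the 3 most alike genes. Some genes that this rule or the marker lists hold are not reported here.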

Additional observations from a re-analysis of the deposited data

Results flagged for a closer look

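Il3ra stood out in 2 ways, both on the same libraries. Its response to IACS-010759 was 0.68 higher on the log2 scale in OHT-primed than in nonprimed cells, a difference that the interaction term of the fit put past the threshold (limma, Benjamini-Hochberg adjusted p = 0.0445). The untreated libraries, at 6.90 to 8.49 RPKM, and the IACS libraries, at 7.60 to 7.74, overlapped, whereas the OHT_IACS libraries, at 9.03 to 9.78, lay above the OHT libraries, at 5.116 to 6.73.

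The effect of OHT on Il3ra also had opposite directions with and without the inhibitor. The log2 fold change was -0.38 for OHT against untreated and 0.30 for OHT_IACS against IACS, with no overlap between the groups in either. This is the same interaction seen from the other side and no second finding. The reason was not tested.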

How the results depend on the processing

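Of 900 values of single genes under the alternatives, 835 kept their direction and their side of the threshold, 34 lost their call, 10 gained a call, and 21 that were not called in either fit changed sign. No called value changed sign. The number of genes called with IACS against untreated was 2 instead of 1 with the library total (log2) as a covariate, which added Jak2 (adjusted p = 0.0362), and with voom on recovered reads, which added Pim1 (adjusted p = 0.0268). Of all 9745 genes, these settings called 1592 and 1797, beside 1548 in the reported fit. The call of Il3ra in the interaction was lost, leaving 0 of 10 genes called, with no filter, with RPKM as deposited, with the replicate block, without the mean-variance trend, with the library total as a covariate and with voom. In that order, 7, 5, 7, 10, 5 and 16 of all genes tested were called, beside 14 in the reported fit. Il3ra was the gene whose values follow. The interaction value of Il3ra stayed between 0.60 and 0.77 and its adjusted p (limma) between 0.00969 and 0.131. Why the calls were lost was not tested. A fit of only the compared groups was not run for the interaction, since it holds all 12 libraries already. With single libraries left out, the number of genes called was 7 to 9 with OHT, 1 to 1 with IACS, 5 to 6 for OHT_IACS against OHT, 6 to 8 for OHT_IACS against IACS and 0 to 1 for the interaction, where Il3ra was called only without untreated replicate 2 and without OHT replicate 2. For all genes tested these ranges were 2650 to 4123, 951 to 1238, 1524 to 2951, 1880 to 2481 and 3 to 130. The pathway list counts ran from 20 to 33, 10 to 20, 14 to 25 and 11 to 20 in the 4 comparisons over all alternatives. Those of all genes tested ran from 2351 to 4123, 951 to 2061, 1524 to 2951 and 1880 to 3023.

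With the replicate block, 3593, 1486, 2256, 2532 and 7 of all 9745 genes were called in the 5 comparisons. Of the 10 genes, the block called 8, 1, 5, 9 and 0. It added Csf2rb with OHT (adjusted p = 0.0472), removed Il3ra in the interaction, and changed no other call. No pairing of the libraries by replicate number was visible. Deviations of same-numbered libraries correlated at -0.17 to 0.10 over 18 pairs, others at -0.18 to 0.17, and 1 of 12 libraries correlated best with its own number.

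Depth limits Il3ra and Socs1, with as few as 74 and 71 reads in a library, and for Csf2rb and Pim1 the levelling of reads limits what can be said of size.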
